A study of Mus musculus with 4 samples.

Results

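The 40 genes described here are transcripts of macrophages and other leukocytes, from the macrophage growth factor receptor Csf1r and the pan-leukocyte phosphatase gene Ptprc to the granule proteins of neutrophils. They were chosen by symbol, and all 40 matched a gene among the 52636 of the deposited table by the GENCODE M21 annotation of the mouse mm10 genome. Whole lungs of C57BL/6 embryos, taken at embryonic day 14.5, had been sequenced as RNA, with 2 libraries from the wild type (control) and 2 labelled as a conditional knockout of Yap (Yap CKO), which the series title calls epithelial-specific. Yap is a transcriptional coactivator that the Hippo kinases hold in check. The labels give neither the Cre driver nor whether the libraries came from separate embryos, so the p-values reflect the spread among these 4 libraries, which may be technical. Leukocytes are a small part of such a library, which also holds epithelium, mesenchyme, vessels and blood.

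Macrophages enter the fetal lung from the yolk sac and fetal liver and depend on signals through Csf1r, whose ligand Csf1 is made largely by other cells. They clear dying cells with scavenger and complement receptors, and they share with all leukocytes a set of haematopoietic signalling proteins. At this stage few lymphocytes have formed, and neutrophil granule genes mark granulocytes or their precursors in circulating blood.

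The values are read counts that the authors had divided by 1 factor per library, here called normalized counts. Depth was 17756301 to 21333878 reads counted to genes. Yap1 itself overlapped between the groups (5686 and 3467 against 3209 and 4483 normalized counts, controls 1 and 2 first), so it does not check the labels in whole lung. The lung epithelial markers Nkx2-1 (2569 to 3333) and Epcam (2145 to 2734) were present in all libraries. Control 1 stood apart by sex, with Xist at 42.6 against 42729 to 50045 in the others and Ddx3y at 1726 against 5.77 to 16.4. Control 2 stood apart in 15 heart muscle genes, which summed to 55806 normalized counts there, against 1871 in the other control and 12558 and 2294 in the Yap CKO libraries. Results of the 40 genes whose direction changes without a control, or whose value moves by over 1.5 times, are given below with and without it.

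Taken as a sum, the 40 genes were lower in the libraries labelled Yap CKO. The 40 genes summed to 13050 and 13018 normalized counts in the controls and to 10327 and 10620 in Yap CKO, or 13034 ± 23.0 against 10473 ± 207 (SD, n = 2), a level 19.6% lower. Without the 3 neutrophil granule genes, which were high in control 1 alone, the other 37 summed to 12319 and 12967 against 10272 and 10591, 17.5% lower. Groups overlapped in the sum of 8 defining macrophage markers, named below (3237 and 4225 against 3335 and 3171). They were apart for 7 lineage and haematopoietic signalling genes (2929 and 3003 against 2239 and 2383). Neutrophil genes were higher in control 1 and macrophage markers in control 2, which offset each other in the full sum. Csf1 and Lgmn, both in the sum, are also made by other cells. All 40 genes together made up 0.0633% and 0.0627% of the library total in controls and 0.0523% and 0.0534% in Yap CKO. No single gene passed the test with all 4 libraries. A linear model across all genes (limma, on log2(normalized count + 1), two-sided, Benjamini-Hochberg adjustment) was fitted to the 19472 genes with a mean of at least 10, among them 38 of the 40. Of these 38, 0 were called at an adjusted p under 0.05, against 2.33% of all genes tested. Unadjusted p was under 0.05 for 12 of the 38, all lower in Yap CKO, where 9.52% of all genes were lower at that level. edgeR on the recovered reads also called 0 (2.07% of all genes), and DESeq2 called 1, Laptm5 (5.54% of all genes with an adjusted p). In 22 of the 38 both Yap CKO libraries lay below both controls, which holds for 25.6% of all genes tested, and in 3 both lay above, against 25.2%. The log2 change (Yap CKO minus control) was below 0 in 32 of the 38 and in 50.6% of all genes, with a median of -0.40, against a median of -0.00 over all genes. Without the 3 neutrophil granule genes it was below 0 in 29 of 35, with a median of -0.37. In whole-lung RNA fewer cells of a type and less RNA per cell cannot be told apart.

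**Figure D1:**
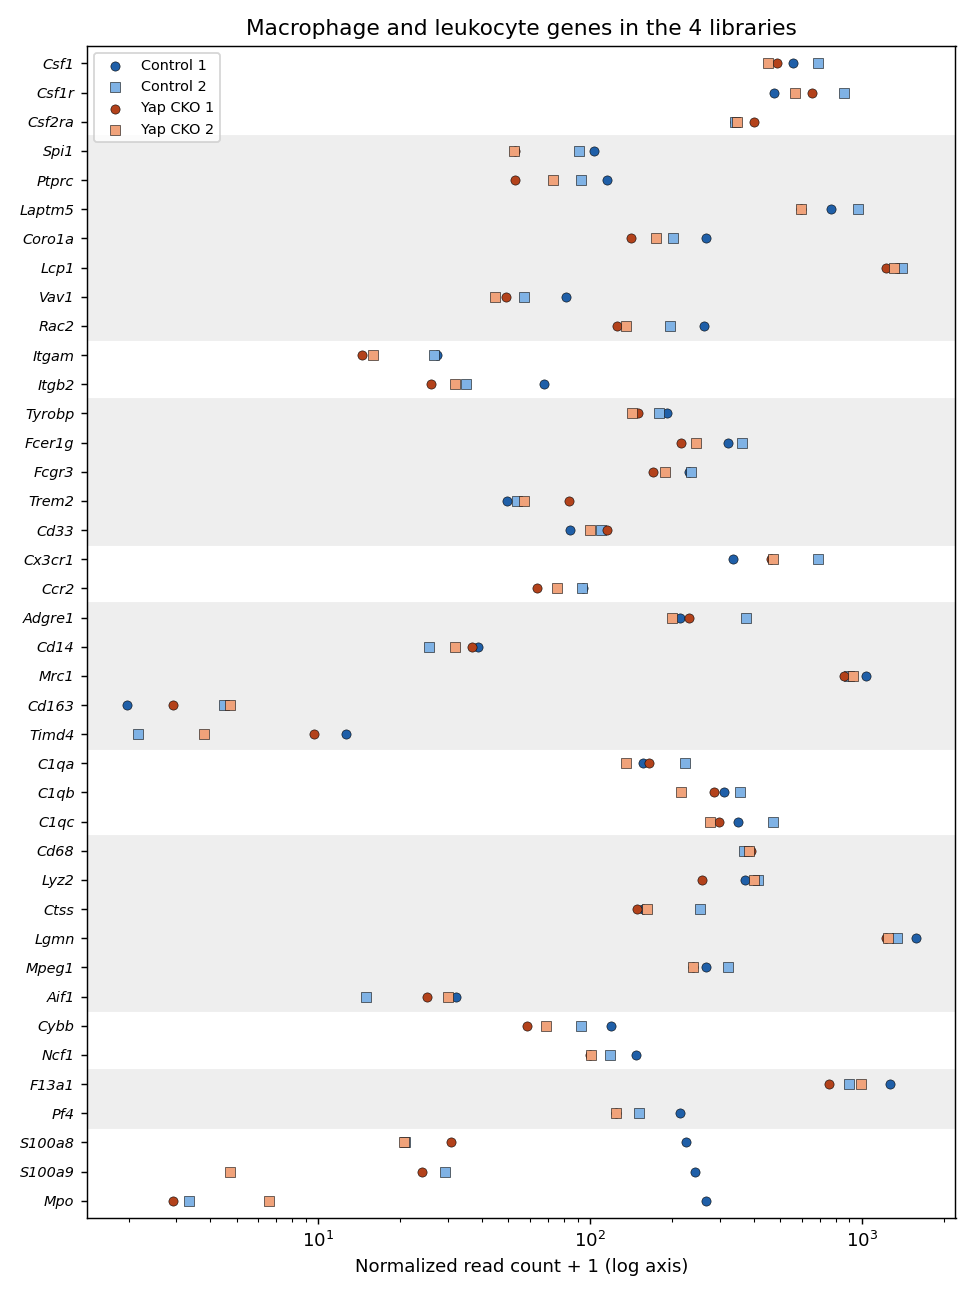
Normalized read count plus 1 (log axis) of each of the 40 genes in the 4 libraries, 1 point per library, with shaded bands separating groups of genes by role. For Spi1, Rac2 and Ptprc both Yap CKO points lie left of both controls, while for S100a8 and Mpo a single library, control 1, lies far to the right.

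The number of calls moved with single libraries. The filter stayed on the mean of all 4 libraries when 1 was left out. Mpo passed it only through control 1, so its call without control 2, with control 1 as the lone control, rests on that library. Without control 1 the model called 8 of the 38 lower (6.17% of all genes), namely Csf1, Csf1r, Laptm5, Fcer1g, Cx3cr1, Adgre1, C1qc and Ctss. Without control 2 it called 11 lower (6.48% of all genes) and 1 higher (6.14%), the lower ones being Spi1, Ptprc, Coro1a, Rac2, Itgb2, Cybb, F13a1, Pf4, S100a8, S100a9 and Mpo, and the higher one Cx3cr1. The 2 fits share 1 called gene, Cx3cr1, with opposite directions. Without Yap CKO 1 it called 0 (0.0103% of all genes) and without Yap CKO 2 also 0 (0.0359%). The log2 change of 22 of the 38 genes moved by over 1.5 times or changed direction when 1 of the controls was left out. The median of the 38 genes lay between -0.43 and -0.36 in all 4 of these fits.

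Rac2, Laptm5 and Spi1 had the lowest p of the 38 genes and are listed with lineage and haematopoietic signalling genes. Spi1 encodes PU.1, the transcription factor that commits progenitors to the myeloid lineage (ENSMUSG00000002111, mm10 chromosome 2, 91082390 to 91115756). Its normalized counts were 102 and 90.0 in the controls, with library 1 given first here and below, and 51.9 and 51.3 in Yap CKO. Both Yap CKO libraries were near 54.4% of the control level, a log2 difference of -0.88 ± 0.22 (SE) with a 95% confidence interval of -1.41 to -0.35 and an adjusted p of 0.105 (limma; 0.0233 to 0.568 over its alternatives). Rac2, the haematopoietic small GTPase that drives migration and the oxidative burst, was at 262 and 195 in controls and at 124 and 135 in Yap CKO. Its log2 difference was -0.80 ± 0.20, with an adjusted p of 0.101, the lowest of the 38 genes (0.00146 to 0.564 over its alternatives).

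Ptprc encodes CD45, the tyrosine phosphatase carried by leukocytes. Its values were 114 and 91.2 in controls and 51.9 and 71.8 in Yap CKO, so the groups were apart, at -0.73 ± 0.26 (adjusted p = 0.202, limma). Laptm5, a lysosomal membrane protein of haematopoietic cells, was at 771 and 968 in controls and at 597 in each Yap CKO library. The difference was -0.53 ± 0.13 (adjusted p = 0.105, limma). With DESeq2 Laptm5 passed at an adjusted p of 0.0454, and over its alternatives the adjusted p ranged from 0.00419 to 0.531. Coro1a, an actin regulator of leukocytes, was at 266 and 201 against 140 and 173 (-0.56 ± 0.20, and -0.36 without control 1 or -0.76 without control 2). Vav1, the exchange factor that activates Rac proteins, stood at 80.4 and 56.1 against 48.1 and 43.8 (-0.54 ± 0.28). Its difference was -0.28 without control 1 and -0.80 without control 2. The actin bundler gene Lcp1 was the exception in size, at 1334 and 1401 against 1226 and 1311, a difference of -0.11 with an interval of -0.34 to 0.12. In all 7 genes of this role both Yap CKO libraries lay below both controls, against 25.6% of all genes tested.

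The leukocyte integrin genes were of the same kind at low levels. Itgam, the alpha chain of the complement receptor CR3 (CD11b), stood at 26.2 and 25.7 in controls and at 13.5 and 14.9 in Yap CKO (-0.83 ± 0.35, adjusted p = 0.266, limma). Itgb2, the beta chain it pairs with, stood at 66.9 and 33.9 against 25.0 and 30.8 (-0.76 ± 0.39, adjusted p = 0.356, limma). The Itgb2 value of control 1 was the only one far from the rest, and without that library the difference was -0.28, compared with -1.24 when control 2 was left out. Over 68.7% of its exon length Itgam overlaps exons of Gm49368 on the same strand, which held 0 to 1 reads. Reads in that stretch may have been left uncounted, so the level of Itgam is uncertain.

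PU.1 binds the sequence GAGGAA, which is present on either strand in the RefSeq promoters (250 bases before to 50 after the start) of 59.4% of the 32 members with an entry and of 31.3% of all 27025 genes with one. It is a short string, and a match is a description only. The promoter of Laptm5 is shown because it had the lowest p among members with an entry, and those of C1qb and C1qc because they are neighbours that make chains of 1 protein. All are from GRCm38.p6, 5′ to 3′ on the gene's strand, with GAGGAA or its reverse complement TTCCTC in capitals.

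Laptm5 (chr4:130913066-130913365, plus strand): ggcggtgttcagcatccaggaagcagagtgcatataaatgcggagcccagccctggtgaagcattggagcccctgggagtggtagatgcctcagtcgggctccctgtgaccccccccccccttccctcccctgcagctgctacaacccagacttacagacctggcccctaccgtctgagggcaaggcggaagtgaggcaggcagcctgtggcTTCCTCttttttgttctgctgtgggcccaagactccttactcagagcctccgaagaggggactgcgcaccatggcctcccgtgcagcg

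C1qb (chr4:136886151-136886450, minus strand): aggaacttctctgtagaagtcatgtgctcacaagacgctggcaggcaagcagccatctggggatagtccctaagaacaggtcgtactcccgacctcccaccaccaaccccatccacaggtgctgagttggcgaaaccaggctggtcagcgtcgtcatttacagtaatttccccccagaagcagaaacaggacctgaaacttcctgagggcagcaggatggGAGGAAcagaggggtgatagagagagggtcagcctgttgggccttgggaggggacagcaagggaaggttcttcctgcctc

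C1qc (chr4:136892865-136893164, minus strand): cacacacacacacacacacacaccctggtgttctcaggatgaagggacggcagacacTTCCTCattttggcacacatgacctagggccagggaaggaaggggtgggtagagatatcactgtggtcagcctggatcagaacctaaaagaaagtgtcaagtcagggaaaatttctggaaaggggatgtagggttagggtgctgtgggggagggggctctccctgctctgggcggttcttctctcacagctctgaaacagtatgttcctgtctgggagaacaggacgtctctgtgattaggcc

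In these windows the match lies 38 bases before the start of Laptm5 on the reverse strand, 30 bases before that of C1qb on the forward strand and 193 before that of C1qc on the reverse strand.

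C1q is the recognition molecule of the classical complement pathway, and its 3 chains are encoded side by side on chromosome 4 and made mainly by tissue macrophages. C1qa had normalized counts of 156 and 223 in controls, against 163 and 135 in Yap CKO. For C1qb the values were 310 and 354 against 284 and 214, and for C1qc 349 and 469 against 298 and 276. The chains followed each other between libraries, with control 2 highest for all 3 and Yap CKO 2 lowest. Their sum was 815 and 1047 in controls and 745 and 625 in Yap CKO, 26.4% lower. The log2 differences were -0.33 ± 0.23 for C1qa, -0.43 ± 0.18 for C1qb and -0.49 ± 0.17 for C1qc (adjusted p = 0.493, 0.268 and 0.198, limma). Groups overlapped for C1qa and were apart for C1qb and C1qc. Without control 2 the differences were -0.07, -0.33 and -0.28, and without control 1 they were -0.58, -0.52 and -0.71.

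Among the receptors and growth factors of macrophages the controls often lay far from each other. Csf1r, which macrophages need to survive, had 472 and 855 normalized counts in the controls and 654 and 564 in Yap CKO. The Yap CKO values lay between the 2 controls, and the log2 difference was -0.06 with an interval of -0.70 to 0.57 (adjusted p = 0.922, limma). Without control 1 it was -0.49, a call at an adjusted p of 0.0356, and without control 2 it was 0.36 (range of adjusted p over its alternatives 0.0356 to 0.996). Exons of Csf1r overlap the antisense gene Hmgxb3 over 15.1% of their length, and the sources used here do not say whether counting used strand. Cx3cr1, the fractalkine receptor of tissue macrophages, spread likewise, at 335 and 691 against 460 and 471 (-0.05 ± 0.31). Its difference was -0.57 without control 1 (adjusted p = 0.0165, limma) and 0.47 without control 2 (adjusted p = 0.0408), within a range of 0.0165 to 0.992 over its alternatives. Under equal library totals it was 0.01. Adgre1, which encodes the macrophage marker F4/80, was at 213 and 372 against 230 and 199 (-0.39 ± 0.27, adjusted p = 0.485, limma). The Adgre1 difference was -0.79 without control 1 and 0.01 without control 2.

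Csf1, the ligand of Csf1r, was at 556 and 689 in controls and at 488 and 452 in Yap CKO. Here the groups were apart, at -0.40 ± 0.14 with an interval of -0.73 to -0.06 (adjusted p = 0.202, limma). It came to -0.55 without control 1 and to -0.24 without control 2. Csf2ra, the alpha chain of the GM-CSF receptor, was at 339 and 341 against 401 and 345 (0.13 ± 0.14). It was 1 of the 3 genes with both Yap CKO libraries above both controls, by a margin of a few counts in Yap CKO 2.

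Other surface proteins of macrophages were close to the control level or low. Mrc1, the mannose receptor CD206, stood at 1031 and 892 in controls and at 856 and 927 in Yap CKO (-0.11 ± 0.12), an interval of -0.38 to 0.17, and at -0.00 without control 1 or -0.21 without control 2. Cd14, the lipopolysaccharide co-receptor, stood at 37.8 and 24.6 against 35.6 and 30.8 (0.11 ± 0.34, and 0.42 without control 1 or -0.19 without control 2). The haemoglobin scavenger receptor gene Cd163 and the phosphatidylserine receptor gene Timd4 were below the filter. Cd163 had 0.969 and 3.51 against 1.92 and 3.73, near the 2.80 to 3.51 normalized counts that 0 reads allow, and Timd4 had 11.6 and 1.17 against 8.65 and 2.80. For these no fold is given. Ccr2, the chemokine receptor of monocytes, was at 93.0 and 92.4 against 62.5 and 74.6, with groups apart (-0.44 ± 0.22, adjusted p = 0.344, limma).

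**Figure D2:**
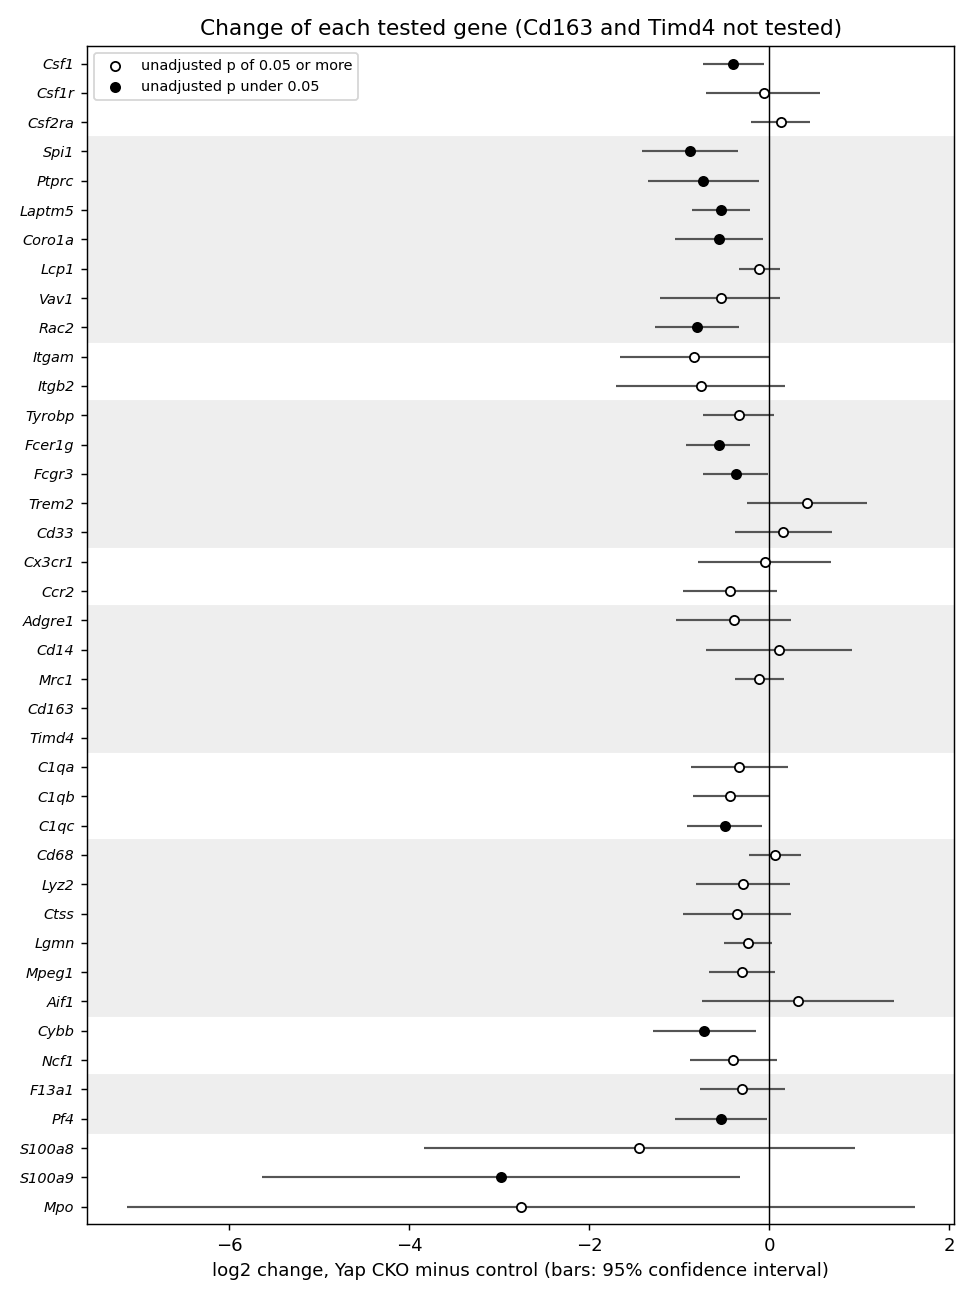
Change of the 38 tested genes on the log2 scale (Yap CKO minus control, horizontal axis) with 95% confidence intervals, filled where the unadjusted p was under 0.05. The 12 filled points all lie left of 0, Spi1 at -0.88 and Rac2 at -0.80 among them, and the intervals of Mpo and S100a8 span several log2 units.

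Receptors that signal through ITAM adaptors were divided. Tyrobp and Fcer1g encode the small adaptor chains DAP12 and FcRgamma, which carry immunoreceptor tyrosine-based activation motifs for many myeloid receptors. Fcer1g had normalized counts of 320 and 360 in controls, against 215 and 244 in Yap CKO (-0.56 ± 0.15, interval -0.92 to -0.21, adjusted p = 0.115, limma). Tyrobp was at 190 and 178 against 149 and 141 (-0.34 ± 0.16). Fcgr3, the IgG receptor that needs Fcer1g at the surface, was at 230 and 234 against 169 and 188 (-0.37 ± 0.15). In these 3 genes the groups were apart, with differences of -0.65, -0.29 and -0.39 without control 1 and -0.48, -0.39 and -0.36 without control 2, in the order named. Fcgr3 resembles the neighbouring Fc receptor genes in sequence, so its reads may be split between them. Trem2, a lipid receptor that signals through Tyrobp, went the other way at 48.5 and 52.6 against 82.7 and 55.9 (0.42 ± 0.28, interval -0.25 to 1.09). The higher value came from Yap CKO 1, and without that library the difference was 0.14. Cd33, a sialic acid binding receptor, overlapped at 83.3 and 109 against 114 and 98.8, a difference of -0.03 without control 1 and 0.35 without control 2.

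Of the 6 phagosome and lysosome genes Cd68 was closest to the control level. The 6 summed to 2774 and 2710 in controls and to 2285 and 2456 in Yap CKO, 13.5% lower, with groups overlapping in 3 of them. Cd68, a lysosomal glycoprotein used to stain macrophages, had normalized counts of 370 and 368 in controls, against 391 and 384 in Yap CKO. The log2 difference of 0.07 had an interval of -0.22 to 0.36, which includes both a fold of 0.861 and one of 1.28. Per kilobase of exon the most abundant of the 40 genes in controls was Lgmn, the asparaginyl endopeptidase legumain, at 629 normalized counts per kilobase, followed by Fcer1g (389), C1qb (305), Lyz2 (298) and Cd68 (294). Lgmn stood at 1581 and 1340 against 1227 and 1246 (-0.24 ± 0.11, and -0.12 without control 1 or -0.35 without control 2). Lgmn is also made outside the macrophage lineage. Ctss, the cathepsin of antigen-presenting cells, was at 156 and 253 against 148 and 161. Its difference of -0.36 was -0.71 without control 1 (adjusted p = 0.0287, limma; 0.0287 to 0.977 over its alternatives) and -0.01 without control 2. Mpeg1, the pore protein perforin-2, was at 266 and 320 against 237 in each Yap CKO library, a difference of -0.43 without control 1 and -0.16 without control 2. The lysozyme gene Lyz2 differed more within Yap CKO (258 and 399) than between the groups (370 and 414 in controls). Aif1, the actin-binding protein Iba1, was at 31.0 and 14.0 against 24.0 and 28.9, a difference of 0.86 without control 1 and -0.23 without control 2.

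The phagocyte NADPH oxidase makes superoxide from a membrane core and cytosolic subunits. Cybb, its catalytic subunit on the X chromosome, had normalized counts of 118 and 91.2 in controls, against 57.7 and 68.0 in Yap CKO (-0.72 ± 0.24, adjusted p = 0.181, limma). Ncf1, the organizer subunit p47phox, was at 147 and 117 against 99.0 and 99.7 (-0.40 ± 0.20, and -0.23 without control 1 or -0.56 without control 2). Both genes had their groups apart. Exons of Ncf1 overlap those of the antisense gene Gtf2ird2 over 11.1% of their length. Rac1, a GTPase of the complex that is made in all cells, was at 5427 and 6378 against 5527 and 5871.

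F13a1 and Pf4 are secreted products of macrophages that megakaryocytes also make. F13a1, the clotting factor XIII A chain, overlapped at 1267 and 896 normalized counts against 757 and 992. Pf4, or platelet factor 4, was at 213 and 150 against 123 in each Yap CKO library (-0.53 ± 0.22, interval -1.05 to -0.02). Without control 1 the differences were -0.05 for F13a1 and -0.28 for Pf4, and without control 2 they were -0.55 and -0.79, where Pf4 had an adjusted p of 0.0121 (limma). Both were highest in control 1, as was the sum of 9 megakaryocyte and platelet genes, at 964 and 608 in controls and at 536 and 692 in Yap CKO. Of these 9 genes 0 were called by limma, edgeR or DESeq2 and 0 had an unadjusted p under 0.05, and the part of platelets in the values of Pf4 and F13a1 was not tested.

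Neutrophil granule genes were high in a single library. Mpo, the myeloperoxidase of azurophil granules, had 265 normalized counts in control 1, against 2.34 in control 2 and 1.92 and 5.59 in Yap CKO. Mpo passed the filter of 10 through control 1 alone, so its test and its place among the 38 rest on that library. S100a8 was at 225 against 19.9, 29.8 and 19.6, and its partner S100a9 at 242 against 28.1, 23.1 and 3.73, in the same order. Together these 3 genes made up 732 normalized counts in control 1 and 50.3 in control 2, a ratio of 14.5 between libraries of the same group. The log2 differences were -2.76 ± 1.83 for Mpo, -1.45 ± 1.00 for S100a8 and -2.98 ± 1.11 for S100a9, with adjusted p of 0.476, 0.494 and 0.222 (limma). Without control 2 they were -5.92, -3.17 and -4.51. Without control 1 they were 0.39, 0.27 and -1.45, so the direction of Mpo and S100a8 rests on that library. For S100a9 it does not, though 3.73 normalized counts in Yap CKO 2 is close to the 2.80 that 0 reads allow.

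The other neutrophil granule genes listed were also highest in control 1 as a sum. Over 9 genes it came to 489 and 97.1 in the controls and to 93.3 and 45.7 in Yap CKO. Of the 5 that passed the filter 0 were called by limma or edgeR, 1 by DESeq2 (Ngp), and 2 had an unadjusted p under 0.05. Ngp, neutrophilic granule protein, had 137 in control 1, against 25.7, 18.3 and 5.59. Lcn2, the siderophore binder lipocalin-2, was at 58.1 against 14.0, 7.69 and 2.80. Ltf, lactoferrin, was at 69.8 against 8.19, 16.3 and 2.80, and Mmp9, a gelatinase, at 29.1 against 14.0, 12.5 and 6.52. In 3 of the 5 tested, Ngp, Lcn2 and Mmp9, both Yap CKO libraries lay below both controls, against 25.6% of all genes tested. Lcn2 and Ltf passed the filter through their level in control 1. The promoters of S100a8 and S100a9, genes that lie close together on chromosome 3 and encode the subunits of calprotectin, are shown with the same motif in capitals.

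S100a8 (chr3:90668821-90669120, plus strand): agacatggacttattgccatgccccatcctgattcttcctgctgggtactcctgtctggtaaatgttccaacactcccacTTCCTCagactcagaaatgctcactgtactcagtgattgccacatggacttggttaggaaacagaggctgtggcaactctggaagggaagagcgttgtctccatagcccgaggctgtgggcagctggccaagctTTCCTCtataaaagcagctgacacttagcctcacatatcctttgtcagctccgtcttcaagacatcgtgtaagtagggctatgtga

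S100a9 (chr3:90695672-90695971, minus strand): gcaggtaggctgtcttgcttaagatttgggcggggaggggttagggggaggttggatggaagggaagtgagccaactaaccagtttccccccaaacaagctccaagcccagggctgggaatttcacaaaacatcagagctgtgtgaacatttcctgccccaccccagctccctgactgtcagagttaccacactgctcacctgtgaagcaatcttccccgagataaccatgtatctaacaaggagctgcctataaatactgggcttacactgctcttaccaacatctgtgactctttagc

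S100a8 holds 2 matches on the reverse strand, 170 and 36 bases before its start, and S100a9 holds 0 in this window.

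**Figure D3:**
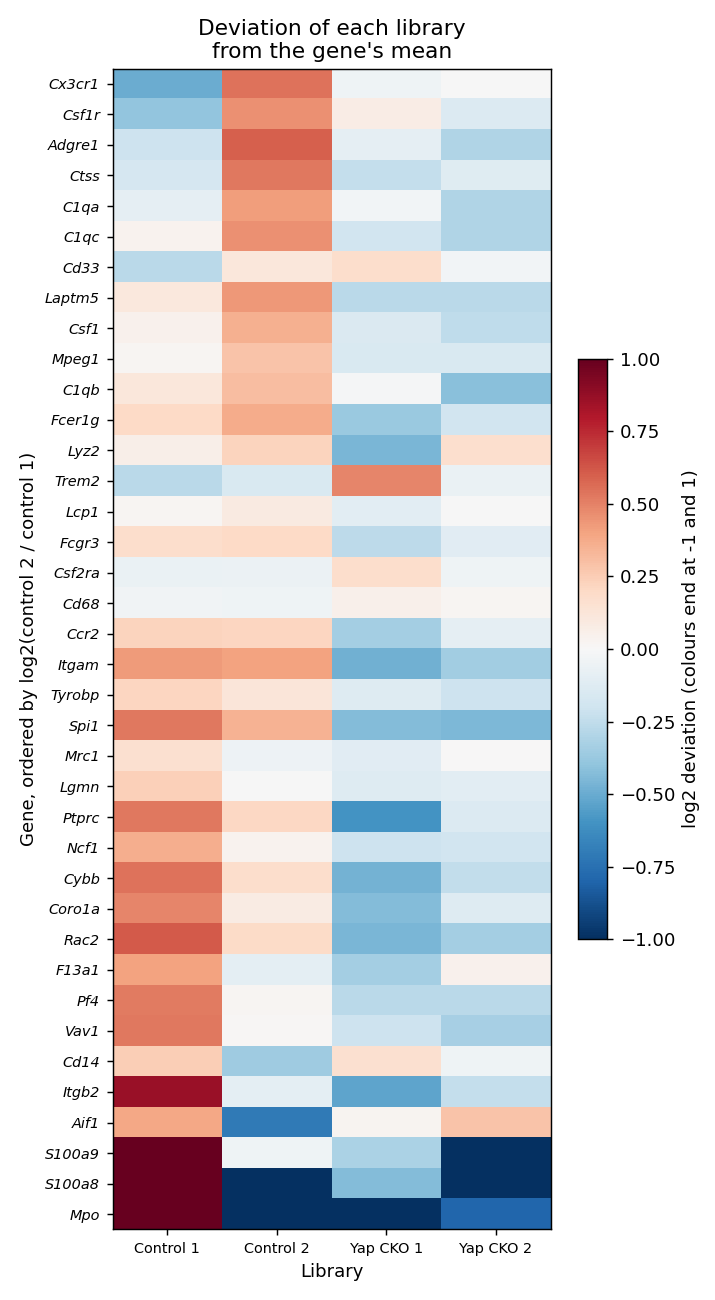
Log2 deviation of each library from the gene's mean over the 4 libraries (on log2(normalized count + 1)), for the 38 tested genes ordered by the ratio of control 2 to control 1. Cx3cr1, Csf1r, Adgre1 and Ctss at the top are highest in control 2, S100a8, S100a9 and Mpo at the bottom are highest in control 1, and Spi1, Itgam and Tyrobp in the middle are higher in both controls than in either Yap CKO library.

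The 2 controls were not high in the same leukocyte genes. Of the 38 tested genes 17 were higher in control 2 (44.7%, against 45.5% of all genes tested) and 21 in control 1. By more than 1.5-fold, 4 were higher in control 2, namely Cx3cr1 (2.06), Csf1r (1.81), Adgre1 (1.74) and Ctss (1.62). Those higher in control 1 by that margin were 6, namely Itgb2, Cd14, Aif1, S100a8, S100a9 and Mpo. These are 10.5% and 15.8% of the 38, against 7.30% and 7.51% of all genes tested. Between the Yap CKO libraries 4 genes differed by that margin, Lyz2 and Mpo being higher in Yap CKO 2 and S100a8 and S100a9 in Yap CKO 1. The 8 defining macrophage markers (Csf1r, Adgre1, Cx3cr1, Mrc1, Cd68 and the 3 C1q genes) summed to 3237 and 4225 in controls and to 3335 and 3171 in Yap CKO. Relative to control 2 alone the Yap CKO mean was 0.770 of the control level, and relative to control 1 alone it was 1.01. For the 7 genes of haematopoietic signalling, Spi1 to Rac2, the same ratios were 0.770 and 0.789, so their lower level held against either control. Heart muscle transcripts and the sum of the macrophage markers were highest in control 2, though Mrc1 and Cd68 were not. The part of heart muscle transcripts in the differences was not tested. The same holds for sex, which differs between control 1 and the other libraries.

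Further leukocyte genes outside the 40 were read from the same fit. Of 22 other haematopoietic signalling genes 0 were called by limma or edgeR, 1 by DESeq2 (Ikzf1), and 5 had an unadjusted p under 0.05, all lower, with a median of -0.43. In 11 of the 22 both Yap CKO libraries lay below both controls, against 25.6% of all genes tested. The share of all genes lower at an unadjusted p under 0.05 was 9.52% (limma). Ikzf1, which encodes the lymphoid and myeloid transcription factor Ikaros, was nearest to a call with normalized counts of 200 and 151 in controls, against 84.6 and 80.2 in Yap CKO (-1.07 ± 0.21, adjusted p = 0.0607, limma). Cd52, a small surface glycoprotein of leukocytes, was at 59.1 and 88.9 against 29.8 and 41.9 (-1.01 ± 0.32). Arhgdib, an inhibitor of GDP release from small GTPases, was at 653 and 716 against 483 and 538. Nckap1l, a subunit of the actin regulator WAVE in blood cells, was at 274 and 290 against 218 and 199.

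Of 22 other macrophage genes 20 were tested, 0 were called by limma or edgeR, 1 by DESeq2 (Msr1), and 3 had an unadjusted p under 0.05, all lower, with a median of -0.23. Ctsc, the cathepsin that activates granule proteases, was at 1441 and 1422 against 1056 and 1146 (-0.38 ± 0.10, adjusted p = 0.105, limma). Msr1, the class A scavenger receptor, was at 234 and 110 against 75.0 and 57.8 (-1.27, and -0.73 without control 1 or -1.81 without control 2), and Siglec1, the sialoadhesin of resident macrophages, at 55.2 and 56.1 against 34.6 and 28.9. Fcgr1, the high-affinity IgG receptor, was at 82.4 and 66.7 against 51.9 and 55.0. In all 4 of these genes, chosen for their low p, the groups were apart, but in 11 of the 20 tested they overlapped. The log2 change was above 0 in 8 of the 20. Summed over the 22 genes the groups overlapped too, at 7276 and 8291 in controls against 7421 and 6833 in Yap CKO. Of all genes tested, 9.52% were lower at an unadjusted p under 0.05 (limma).

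Growth factors and receptors of other blood lineages went in both directions. Of 9 listed, 6 were tested, 0 were called by limma or edgeR, 1 by DESeq2 (Kit), and 2 had an unadjusted p under 0.05, both higher. Kit, the stem cell factor receptor of mast cells and progenitors, which other lung cells may also express, was at 962 and 1309 in controls and at 1893 and 1831 in Yap CKO (0.73 ± 0.15, adjusted p = 0.0699, limma). Flt3l, a ligand for dendritic cell progenitors, was at 25.2 and 19.9 against 48.1 and 38.2. Csf2rb, the shared beta chain of the GM-CSF receptor, was at 154 and 86.5 against 56.7 and 84.8 (-0.73, and -0.31 without control 1 or -1.14 without control 2). The ligand of Kit, Kitl, was at 2774 and 2749 against 2241 and 2739. Of 10 chemokine ligands 9 were tested and 0 were called by limma, edgeR or DESeq2, with 1 lower and 1 higher at an unadjusted p under 0.05. The monocyte attractant gene Ccl2 was at 178 and 208 against 97.1 and 144 (-0.70 ± 0.23), and its relative Ccl7 at 34.9 and 23.4 against 13.5 and 18.6, while Ccl12 was likewise lower in both Yap CKO libraries than in both controls. Ccl3 was at 14.5 and 10.5 against 26.9 and 22.4.

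Other blood cells were at low levels or varied between libraries. Lymphocyte transcripts were at or near 0, and 2 of 13 genes passed the filter, Gata3 and Cd79b. The list summed to 58.1 and 92.4 in controls and to 140 and 108 in Yap CKO. The T cell receptor component gene Cd3e had 0 reads in every library. The 6 mast cell genes summed to 186 and 66.7 against 83.6 and 145, with 3 tested, 0 called by limma, edgeR or DESeq2 and 0 at an unadjusted p under 0.05, and Cpa3, mast cell carboxypeptidase, was at 121 and 43.3 against 63.5 and 89.5. The 10 endothelial genes summed to 22011 and 24476 in controls and to 22947 and 22283 in Yap CKO, with 0 called by limma, edgeR or DESeq2 and 0 at an unadjusted p under 0.05.

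Erythroid genes varied between libraries of a group as well. The 13 erythroid genes summed to 124163 and 166931 normalized counts in controls and to 94413 and 122376 in Yap CKO, or 0.602%, 0.804%, 0.478% and 0.615% of the totals. Of these, 1 was called lower and 1 higher, and the groups overlapped in 7. The embryonic globin gene Hba-x fell from 5920 and 6104 to 2483 and 3077 (-1.12 ± 0.12, adjusted p = 0.0134, limma). The red cell membrane gene Epb42 rose from 116 and 38.6 to 496 and 384 (2.68 ± 0.47, adjusted p = 0.0443, limma), a call that edgeR did not make. The anion exchanger gene Slc4a1 had 1280 in control 1, against 522, 336 and 360. Liver is a site of blood formation at this stage, and of 11 liver genes 4 passed the filter. Alb, Apoa1 and Ttr were under 10 in both controls, so they were tested only through their level in Yap CKO. Apoa1 and Ttr in controls were near or below the 2.91 (control 1) and 3.51 (control 2) that 0 reads allow. Alb, serum albumin, rose from 5.81 and 8.19 to 275 and 144, and Afp, the fetal serum protein alpha-fetoprotein, from 17.4 and 43.3 to 1157 and 639 (adjusted p = 0.00669 and 0.00858, limma). Apoa1, an apolipoprotein, rose from 1.94 and 3.51 to 73.1 and 31.7, and the transport protein gene Ttr from 0 and 4.68 to 111 and 76.4 (adjusted p = 0.027 and 0.0316, limma). Without the filter Alb alone of the list was called (adjusted p = 0.0373, limma). The part of blood or liver in the leukocyte values was not tested.

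**Figure D4:**
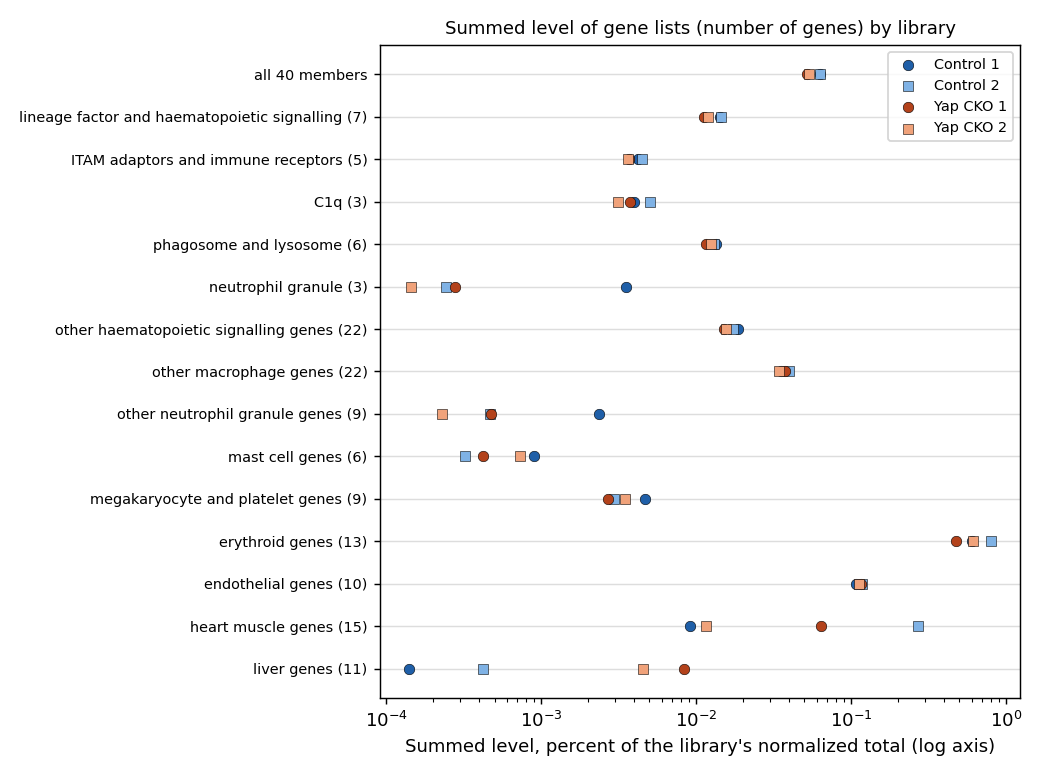
Summed level of gene lists as a percentage of each library's normalized total (log axis), 1 point per library, with the number of genes in brackets. The 40 genes lie between 0.0523% and 0.0633%, neutrophil granule genes are high in control 1 alone, and heart muscle genes range from 0.00907% in control 1 to 0.269% in control 2.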

How the data were processed

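Whole-lung RNA of 4 libraries was compared, 2 control and 2 Yap CKO, grouped by their titles. The authors deposited 1 table of a signal, the normalized read count per gene, with libraries scaled against each other. Every value was a whole multiple of 1 number per library (100% within 0.001 reads), so reads were recovered, and the factors were 1.0319, 0.8551, 1.0401 and 1.0728. The submitters' processing notes list, with no role or order, edgeR 3.18.1, DESeq 1.16.0, featureCounts 1.5.0-p1, Bowtie2 2.2.9 and mm10. The annotation and strand setting are not given in the sources used here.

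Symbols, positions and exon lengths came from GENCODE M21, which matched 52403 of 52636 identifiers. limma 3.58.1 (R 4.3.3) was fitted with an intensity trend to log2(normalized count + 1) of 19472 genes with a mean of at least 10, which leaves 2 residual degrees of freedom plus 4.5 from the other genes. The method was tested on simulated data. Fold changes on that scale understate those of low genes. edgeR 4.0.16 and DESeq2 1.42.0 were run on the recovered reads as alternatives. Levels between genes were compared per kilobase of exon. Floors are 3 reads and cover counting error only.

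The text names all 40 members, Yap1, called genes of 13 further lists and up to 4 genes with the smallest p in each. The counts of 1 list are not reported here. The members and lists were chosen with earlier results of these data known.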

Additional observations from a re-analysis of the deposited data

How the results depend on the processing

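Without the filter 39 genes were called higher and 17 lower, without the intensity trend 5 and 1, and with DESeq2 441 and 596, against 231 and 223. Leaving out 1 library gave 0 to 1258 higher and 2 to 1262 lower, with a lone library taken to vary like the other group. Among the 40 members the calls were 0 to 1 higher and 0 to 11 lower when 1 library was left out, 1 lower with DESeq2 (Laptm5) and 0 with edgeR. Of the 153 genes of the other lists 5 were called higher and 1 lower. This became 1 and 0 without the filter, 3 and 2 with a filter at 50, 0 and 0 without the trend, 5 lower with DESeq2, and 0 to 20 higher and 0 to 25 lower when 1 library was left out.

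The labels do not say whether the numbers 1 and 2 pair the libraries. Same-numbered deviations from the group means correlated at -0.364 across genes, which with 2 libraries per group cannot settle it. With the replicate number as a block 166 genes were called higher and 176 lower, and 1 member passed, S100a9 (-2.98, adjusted p = 0.0261, limma). With the crossed pairing as a block, added after seeing the data, 432 genes were called higher and 540 lower, 0 members and 8 lower genes of the other lists.

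Cx3cr1 was at 0.01 under equal totals. Leaving out 1 library gave -0.49 to 0.36 for Csf1r, -0.03 to 0.35 for Cd33, -0.57 to 0.47 for Cx3cr1, -0.79 to 0.01 for Adgre1, -0.19 to 0.42 for Cd14, -0.60 to 0.03 for Lyz2, -0.23 to 0.86 for Aif1, -3.17 to 0.27 for S100a8 and -5.92 to 0.39 for Mpo. The other 29 tested members kept their direction under every alternative run. The summed level of the members was 12759 in control and 10703 in Yap CKO under equal totals, and 13018 to 13050 and 10327 to 10620 when 1 library was left out. The cause of these differences was not tested. Genes near 10 normalized counts are limited by depth.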
